A study of Mus musculus with 10 samples.

Results

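Oncomodulin (Ocm), parvalbumin (Pvalb), calbindin (Calb1), calretinin (Calb2), the calcium-binding proteins Cabp1 and Cabp2, and Purkinje cell protein 4 (Pcp4) are calcium buffers and calcium sensors or calmodulin regulators of sensory cells and neurons. These 7 genes were taken by symbol from the 32285 genes of the count matrices, and were chosen with earlier results of these data known. Their transcripts were followed in hair cells (HCs) and other cells of the cochlea, the organ of hearing, and the vestibule, the organ of balance. The mice were wild-type CBA/J animals of 22 months, with no treatment other than ageing, and all libraries shared this age and genotype. The values therefore describe old ears and carry no comparison with young ones. Each library was made by droplet single-cell RNA sequencing of dissociated sensory epithelia from 7 to 8 pooled mice, so that a replicate is a pool and not an animal.

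In HCs, calcium enters through the mechanotransduction channels at the hair bundle and through voltage-gated calcium channels at the ribbon synapse. Mobile buffers with EF-hand motifs, among them the parvalbumins, calbindin and calretinin, bind this calcium quickly and limit how far and how long it spreads. Cabp1 and Cabp2 encode relatives of calmodulin that slow the calcium-dependent inactivation of voltage-gated calcium channels, and loss of CABP2 causes inherited hearing loss. Pcp4 encodes a small protein with an IQ motif that binds calmodulin and speeds its exchange of calcium. Oncomodulin is an abundant protein of outer HCs (OHCs), and calretinin is widely used to label inner HCs (IHCs), some type II vestibular HCs and afferent neurons.

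Although 5 libraries per organ were deposited, replicate 2 repeated the cells of replicate 1 in both organs. All 1313 barcodes of cochlear replicate 2 and 1633 of the 1641 barcodes of vestibular replicate 2 were also in replicate 1, while other pairs of libraries within an organ shared at most 17. Replicate 2 was therefore left out, and n was 4 libraries per organ (replicates 1, 3, 4 and 5). These held 1130 to 12397 barcodes and 2738036 to 26974948 unique molecular identifiers (UMIs, counted transcripts), and 571 to 5438 cells per library passed the filters.

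The cells were clustered without the 7 genes, and HC types were named from other markers. Slc26a5, which encodes the OHC motor protein prestin, was detected in 84.4% of the 77 OHCs and 1.35% of the 74 IHCs. Otof, which encodes otoferlin of the ribbon synapse, was detected in 98.6% of the IHCs. In the vestibule, Adam11 was detected in 92.2% of 1492 type I HCs and 6.14% of 277 type II HCs, and Sox2 in 1.47% and 79.1%. The cochlear HCs were few. OHCs numbered 24, 31, 8 and 14 in replicates 1, 3, 4 and 5, and IHCs numbered 49, 6 and 18 in replicates 3, 4 and 5, while the 1 IHC of replicate 1 was not used for IHC levels. A further 71 cochlear and 501 vestibular cells carried HC markers together with markers of another class and were set aside. Levels are given as counts-per-million UMIs (CPM) over the summed cells of each library and population, and the values follow the order of replicates 1, 3, 4 and 5 unless stated.

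Between the organs, 6 of the 7 genes were higher in cochlear than in vestibular HCs and none was lower, in a comparison in which 30.6% of 7643 genes tested were called by edgeR at an adjusted p of 0.05. Ocm, Calb2 and Pcp4 differed most, by 18.2-fold, 19.3-fold and 16.9-fold, and Cabp2 was not called. The groups did not overlap for 2 genes, Ocm and Pcp4, and for 30.3% of all genes tested. Between IHCs and OHCs, 3 genes (Pvalb, Calb2 and Cabp2) were higher in IHCs and 2 (Ocm and Calb1) were higher in OHCs, among 6 that passed the filter on low counts, where 32.9% of 1534 genes were called. Pcp4 was not called, and Cabp1 did not pass the filter. The 5 genes called did not overlap between IHCs and OHCs, as was so for 36.8% of all genes tested. Between type I and type II HCs, Ocm and Cabp1 were higher in type I HCs and Calb2 and Pcp4 in type II HCs, so that 4 of 7 were called beside 17.5% of 7968 genes. The types did not overlap for 3 genes, Calb2, Cabp1 and Pcp4, and for 19.5% of all genes tested. HC types were called by clustering the same cells, and only genes kept out of that clustering are read from these tests.

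**Figure D1:**
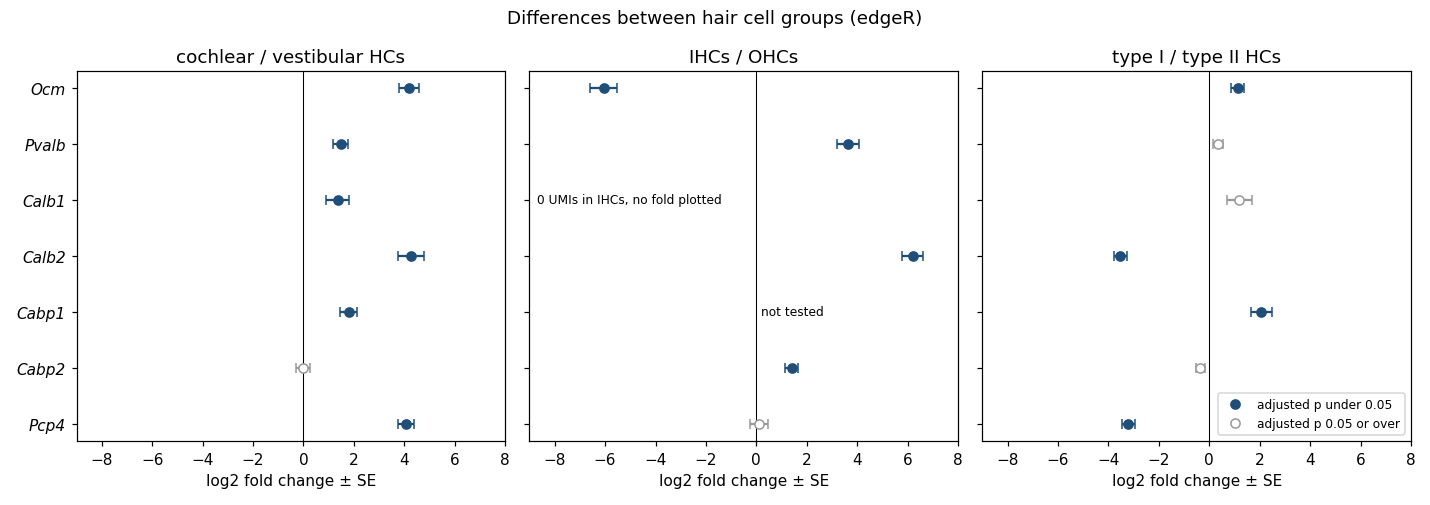
Log2 fold change of each gene between HC groups with its standard error (edgeR), in panels for cochlear over vestibular HCs (4 libraries each), IHCs over OHCs (3 and 4 libraries) and type I over type II HCs (4 libraries each). Filled points had an adjusted p under 0.05. Calb1 has no point between IHCs and OHCs because 0 UMIs were counted in IHCs, and Cabp1 there was not tested. Calb2 lies at 6.20 between IHCs and OHCs and at -3.52 between type I and type II HCs.

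Ocm (ENSMUSG00000029618, chr5:144019804-144026670 on the minus strand of GRCm38) encodes the beta isoform of parvalbumin. Its level in OHCs was 31612, 41472, 32456 and 25538 CPM, a mean of 32769 ± 6569 (SD, n = 4), and 94.8% of OHCs held at least 1 UMI. The 4 OHC libraries lay above every library of every other population. In IHCs Ocm was at 767, 129 and 595 CPM in replicates 3, 4 and 5 (497 ± 330, n = 3), which did not overlap with OHCs, and the difference was 66.8-fold (log2 fold change -6.06 ± 0.52 SE, IHC over OHC, adjusted p = 3.056e-11).

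A UMI of Ocm was found in 51.4% of IHCs, or 27.0% when every cell was thinned to 1000 UMIs. In cochlear fibroblast- or fibrocyte-like cells, taken as background for Ocm, the share was 1.86%, or 1.21% when thinned. Their median was 1511.5 UMIs per cell, against 5710.5 in IHCs. In cochlear macrophage-like cells the share was 1.23%, or 0.615% when thinned. The OHC gene Slc26a5 was close to 0 in the same IHCs. Ocm UMIs outnumbered Slc26a5 UMIs by 20.1 to 1 in OHCs (7892 and 392 UMIs) and by 170 to 1 in IHCs (340 and 2 UMIs). Of the IHC subclusters, one of 44 cells with a median of 10366 UMIs per cell had 332 CPM of Ocm and 0 UMIs of Slc26a5, and one of 30 cells with a median of 1772.5 UMIs had 2752 CPM and 2 UMIs of Slc26a5. Whether RNA from OHCs contributed to the Ocm counts of IHCs was not tested.

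Among vestibular HCs, Ocm was at 1084, 939, 653 and 801 CPM in type I HCs (869 ± 185, n = 4) and at 339, 660, 439 and 187 CPM in type II HCs (406 ± 199). The lowest type I library lay just below the highest type II library, and type I HCs were higher by 2.18-fold (log2 1.12 ± 0.25, edgeR adjusted p = 0.001876). The type I level also overlapped with that of IHCs. Cochlear HCs of all types were at 29317, 8342, 8571 and 9791 CPM and vestibular HCs at 939, 889, 616 and 656 CPM (log2 4.18 ± 0.40, adjusted p = 2.376e-08). Replicate 1, in which 24 of 25 cochlear HCs were OHCs, stood above the other cochlear libraries, and the log2 difference was 3.56 without it, 3.21 with the set-aside cells kept and 3.10 with HCs called cell by cell. With IHCs as the only cochlear HCs, a setting added after the data were seen, Ocm was not called and its sign turned (log2 -0.45, adjusted p = 0.2196).

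**Figure D2:**
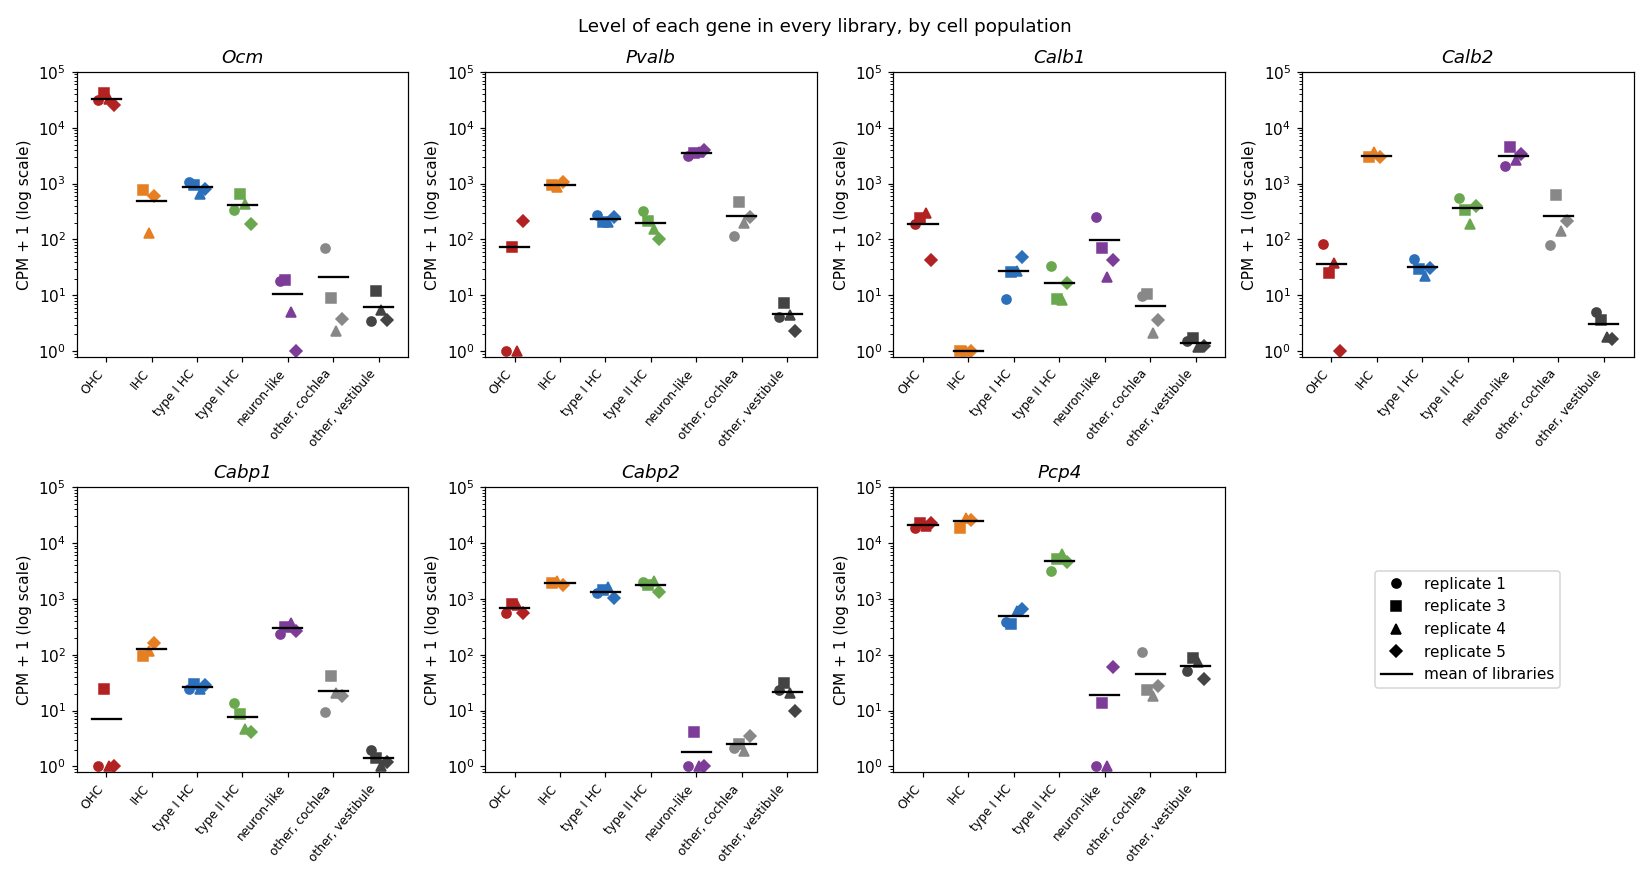
Level of each gene in CPM plus 1 on a log axis, with 1 point per library and the mean of the libraries as a bar, in the 4 HC types, cochlear neuron-like cells and all other cells of each organ. Ocm is highest in OHCs, Calb2 is high in IHCs and neuron-like cells, Cabp2 is seen in all 4 HC types, and Calb1 is at 0 in all IHC libraries.

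Pvalb (ENSMUSG00000005716, chr15:78191114-78206400, minus strand) encodes the alpha isoform of parvalbumin. It was highest outside HCs, in cochlear neuron-like cells, at 3171, 3507, 3625 and 3988 CPM (3573 ± 337, n = 4). IHCs came next at 928, 864 and 1065 CPM in replicates 3, 4 and 5 (952 ± 103, n = 3). These ranges did not overlap with each other or with the levels below them.

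In OHCs, Pvalb was at 0, 71.4, 0 and 212 CPM, which came from 16 UMIs in 7 cells. The share of OHCs with a UMI was 9.09% (exact 95% binomial interval 3.73 to 17.8, counting error only), and 4.31% of cochlear macrophage-like cells held one, so that the OHC share, with libraries pooled, could not be told from background. The 71.4 and 212 CPM of replicates 3 and 5 lay above the highest macrophage-like library, at 21.6 CPM. IHCs were above OHCs in every library (log2 3.63 ± 0.44, adjusted p = 5.386e-08), and the value was 4.68 without replicate 5 and 2.73 under a stricter cell filter of 2000 UMIs and 15% mitochondrial UMIs. In type I HCs Pvalb was at 278, 202, 202 and 247 CPM (232 ± 37.1) and in type II HCs at 326, 210, 155 and 103 CPM (198 ± 95.6). The types overlapped and the difference was not called (log2 0.34 ± 0.21, adjusted p = 0.3389), although it was with the set-aside cells kept (log2 0.59, adjusted p = 0.009023).

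The 2 parvalbumin genes went in opposite directions between the cochlear HC types in each library that held both, with Ocm higher in OHCs and Pvalb higher in IHCs. Between organs, Pvalb was at 577 ± 289 CPM in cochlear and 224 ± 42.7 CPM in vestibular HCs (log2 1.48 ± 0.30, adjusted p = 0.0005411). This value depended on the mix of cochlear types. With OHCs alone as the cochlear HCs the sign turned, with a log2 of -1.71 (adjusted p = 0.001174), and with the 7 genes used in the clustering the call was lost (log2 1.34, adjusted p = 0.06625).

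Calb1 (ENSMUSG00000028222, chr4:15881264-15908064, plus strand) encodes calbindin-D28k. OHCs had its transcript at 191, 238, 292 and 42.4 CPM (191 ± 107, n = 4), and 13% of them held a UMI, against 0 of 325 cochlear macrophage-like cells. IHCs had 0 UMIs in 74 cells, which allows a level of up to 5.64 CPM and a share of up to 4.05% of cells with a UMI. OHCs held 44 UMIs. With UMIs pooled over libraries and a floor of 3 counts over all IHCs, the difference came to 33.3-fold. This is a limit set by the floor and not a measured fold. The exact 95% counting interval of the ratio of IHCs to OHCs reached up to 0.0386. All OHC libraries lay above all IHC libraries (adjusted p = 5.192e-08).

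Cochlear neuron-like cells had Calb1 at 253, 68.5, 20.6 and 41.5 CPM, a range that overlapped with OHCs. In type I HCs it was at 7.72, 24.9, 25.8 and 48.0 CPM (26.6 ± 16.5) and in type II HCs at 31.9, 7.73, 7.37 and 15.6 CPM (15.7 ± 11.5). Replicate 1 went against the other 3 libraries in having more Calb1 in type II HCs. The type difference was not called (log2 1.20 ± 0.49, adjusted p = 0.1062), but was called with the replicate as a block (log2 1.25, adjusted p = 0.0124) and without replicate 1 (log2 1.72, adjusted p = 0.006082). It was also called with no filter on low counts (adjusted p = 0.008532), with replicate 2 in place of replicate 1 (adjusted p = 0.0449) and with the set-aside cells kept (adjusted p = 0.0137). Between organs Calb1 was at 78.4 ± 70.5 CPM in cochlear and 24.3 ± 11.6 CPM in vestibular HCs (log2 1.36 ± 0.44, adjusted p = 0.02217). This call was lost without any one of cochlear replicates 1 and 4 and vestibular replicates 3 and 4 (adjusted p = 0.0997, 0.0547, 0.0616 and 0.0545), and with HCs called cell by cell (log2 0.43, adjusted p = 0.5116) or the set-aside cells kept (log2 0.45, adjusted p = 0.4826).

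Calb2 (ENSMUSG00000003657, chr8:110137502-110168210, minus strand) encodes calretinin. IHCs had 2969, 3609 and 2936 CPM in replicates 3, 4 and 5 (3171 ± 379, n = 3), and neuron-like cells had 2091, 4545, 2628 and 3394 CPM (3165 ± 1064, n = 4). The 2 populations overlapped. OHCs had 82.0, 23.8, 36.5 and 0 CPM, from 9 UMIs in all. With libraries pooled, the 7.79% of OHCs with a UMI was below the 8.62% of macrophage-like cells and could not be told from background. The 82.0 CPM of replicate 1 lay above the highest macrophage-like library, at 38.1 CPM. The difference between IHCs and OHCs was 73.3-fold (log2 6.20 ± 0.40, adjusted p = 7.032e-14). The log2 was 7.21 without replicate 1, 7.19 with the replicate as a block and 5.33 under the stricter cell filter.

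In the vestibule, Calb2 was at 43.2, 28.6, 21.2 and 29.7 CPM in type I HCs (30.7 ± 9.17) and at 556, 334, 188 and 392 CPM in type II HCs (367 ± 152). Every type II library lay above every type I library, and the difference was 11.5-fold (log2 -3.52 ± 0.24, type I over type II, adjusted p = 9.495e-11), or a log2 of -2.46 with the set-aside cells kept. Cochlear HCs as a whole had 1766 ± 1154 CPM against 97.7 ± 40.3 CPM in vestibular HCs (log2 4.27 ± 0.53, adjusted p = 1.332e-06). With OHCs alone as the cochlear HCs the sign turned (log2 -1.32, adjusted p = 0.06824).

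Cabp1 (ENSMUSG00000029544, chr5:115168689-115194381, minus strand), the calmodulin relative also known as caldendrin in its long form, was highest in neuron-like cells at 236, 310, 375 and 266 CPM (297 ± 60.3, n = 4). IHCs had 95.2, 116 and 161 CPM in replicates 3, 4 and 5 (124 ± 33.6, n = 3), below all neuron-like libraries. OHCs held 2 UMIs, both in the same cell, against 57 UMIs in IHCs. The ratio of IHCs to OHCs was 12.6 (exact 95% counting interval 3.32 to 106). Type I HCs had 23.2, 28.9, 23.5 and 27.8 CPM (25.9 ± 2.95) and type II HCs had 12.8, 7.73, 3.68 and 3.11 CPM (6.83 ± 4.47). The type I values were close together and all above the type II values (log2 2.07 ± 0.40, adjusted p = 0.0004408), and the value was 1.02 with the set-aside cells kept. Between organs Cabp1 was at 67.3 ± 45.7 CPM in cochlear and 22.1 ± 2.16 CPM in vestibular HCs (log2 1.80 ± 0.34, adjusted p = 0.000236). The organs overlapped, with the lowest cochlear library at 0 CPM. OHCs alone had a mean of 5.95 CPM, below the mean of vestibular HCs, so that the higher cochlear level was that of IHCs.

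Cabp2 (ENSMUSG00000024857, chr19:4081578-4087340, plus strand) was detected in all 4 HC types. IHCs had 1905, 2075 and 1759 CPM in replicates 3, 4 and 5 (1913 ± 158, n = 3), type II HCs 2012, 1798, 2067 and 1342 CPM (1805 ± 330, n = 4) and type I HCs 1258, 1442, 1596 and 1021 CPM (1329 ± 248). IHCs overlapped with type II HCs, and type II HCs with type I HCs, while all IHC libraries lay above all type I libraries. OHCs had 560, 821, 766 and 551 CPM (675 ± 139), below every library of the other HC types, and IHCs exceeded them by a log2 of 1.40 ± 0.25 (adjusted p = 3.338e-05). That call was lost when the cells set aside were kept as HCs (log2 0.77, adjusted p = 0.08387). The types I and II were not called apart (log2 -0.36 ± 0.18, adjusted p = 0.204). With the replicate as a block they were, since type II HCs were higher in all 4 libraries (log2 -0.36, adjusted p = 0.00121). Between organs the difference was -0.02 ± 0.28 on the log2 scale (adjusted p = 0.9736), and OHCs alone were lower than vestibular HCs (log2 -1.13, adjusted p = 0.000509).

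Pcp4 (ENSMUSG00000090223, chr16:96467606-96525793, plus strand) was high in both cochlear HC types. IHCs had 18293, 28200 and 26321 CPM in replicates 3, 4 and 5 (24271 ± 5262, n = 3), and OHCs had 18409, 22586, 20203 and 22887 CPM (21021 ± 2115, n = 4). The types overlapped and were not called apart (log2 0.10 ± 0.34, adjusted p = 0.8523). In the vestibule, type II HCs had 3124, 5146, 6375 and 4644 CPM (4822 ± 1346) and type I HCs had 381, 361, 596 and 653 CPM (498 ± 148). All type II libraries were higher, by 9.25-fold (log2 -3.21 ± 0.25, type I over type II, adjusted p = 5.334e-10), or a log2 of -1.99 with the set-aside cells kept. The organs were apart in every library, at 22045 ± 4136 CPM in cochlear and 1327 ± 325 CPM in vestibular HCs (log2 4.08 ± 0.32, adjusted p = 1.488e-09), or a log2 of 3.48 with HCs called cell by cell.

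Pcp4 also appeared outside HCs. Vestibular epithelial-like cells, which were not HCs by their markers, had 213 ± 75.0 CPM (n = 4), and 29.4% of them held a UMI at a median of 1988 UMIs per cell. The share was 6.30% in vestibular macrophage-like cells, at a median of 2767 UMIs. The epithelial-like libraries overlapped with the next population, T cell-like cells at 129 ± 163 CPM (n = 3). Cochlear supporting cell-like cells had 94.6 ± 56.3 CPM of Pcp4 (n = 4). At a median of 2137 UMIs per cell, 11.3% of them held a UMI, against 3.69% of cochlear macrophage-like cells at 2218.

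HCs were next compared with all other cells of the same organ, 7050 in the cochlea and 8154 in the vestibule. In the vestibule all 7 genes were higher in HCs and no library overlapped, with 62.5% of 12720 genes called in either direction and 61.9% without overlap. The log2 differences ran from 4.06 ± 0.32 for Pcp4 (adjusted p = 5.783e-07) to 6.65 ± 0.43 for Ocm (adjusted p = 1.392e-07). Calb1 and Cabp1, which were low in vestibular HCs, were at 0.408 ± 0.240 and 0.404 ± 0.433 CPM in the other vestibular cells. The Ocm and Calb1 values were 7.30 and 5.91 without replicate 3, and with HCs called cell by cell all 7 remained called at smaller values, from 3.59 for Pcp4 to 4.73 for Ocm. Under the stricter cell filter Ocm, Pvalb, Calb1 and Cabp2 were at 5.03, 4.76, 6.15 and 4.65, and with replicate 2 in place of replicate 1 Ocm, Pvalb and Cabp2 were at 5.35, 4.76 and 4.76.

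In the cochlea 6 of the 7 genes were higher in HCs, where 41% of 9838 genes were called. The groups did not overlap for 4 of them, Ocm, Calb1, Cabp2 and Pcp4, and for 39.7% of all genes tested. Cabp2 (1.54 ± 0.749 CPM in other cells), Ocm (20.1 ± 32.4) and Pcp4 (43.6 ± 43.9) differed most, with log2 differences of 9.60 ± 0.50, 9.46 ± 1.12 and 8.93 ± 0.67 (edgeR adjusted p = 1.865e-09, 7.762e-06 and 7.425e-08). The Ocm and Pcp4 values were 10.76 and 9.95 without replicate 1, and with HCs called cell by cell Cabp2, Ocm and Pcp4 were at 8.03, 6.76 and 7.31. Ocm was at 10.32 with the replicate as a block and 8.09 with the set-aside cells kept. Pvalb was not called (log2 1.07 ± 0.46, adjusted p = 0.07355), but was called with the replicate as a block (log2 1.04, adjusted p = 0.000126), with the set-aside cells kept (log2 1.14, adjusted p = 0.0455) and without replicate 1 (log2 1.12, adjusted p = 0.0117). When the neuron-like cells, 299 of the 7050, were left out of the other cells, a setting added after the data were seen, the Pvalb difference was 5.74 on the log2 scale (adjusted p = 2.903e-07). Calb1 and Calb2 also changed with this setting. Their differences were 3.38 ± 0.67 and 2.64 ± 0.71 (adjusted p = 0.0007923 and 0.0071) with the neuron-like cells and 7.07 and 7.04 without them, and Calb1 was at 4.30 without replicate 3, 1.94 with HCs called cell by cell (adjusted p = 0.0303) and 2.04 with the set-aside cells kept (adjusted p = 0.0179). Cabp1 was at 1.59 ± 0.53 (adjusted p = 0.02399). Leaving out replicate 4 or 5 ended the call for Calb2 (adjusted p = 0.0772 and 0.0572) and for Cabp1 (adjusted p = 0.1175 and 0.1693), and Cabp1 was also lost by DESeq2 (adjusted p = 0.0773) and under the stricter cell filter (adjusted p = 0.0586).

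The difference between HCs and other cells was itself compared between the organs, in a fit where 15.1% of 13027 genes were called. This fit had no replicate block, and no alternative setting was run for it. It was larger in the vestibule for Pvalb (log2 4.47 ± 0.67, adjusted p = 0.0001225) and Cabp1 (4.10 ± 0.86, adjusted p = 0.002448). It was larger in the cochlea for Pcp4 (-4.77 ± 0.66, adjusted p = 5.736e-05) and Cabp2 (-3.73 ± 0.54, adjusted p = 9.446e-05). Cabp2 in other cells was at 1.54 CPM in the cochlea and 20.3 ± 8.70 CPM in the vestibule, where 3.84% of macrophage-like cells held a UMI. Whether free RNA from the more numerous vestibular HCs contributed was not tested. Ocm, Calb1 and Calb2 were not called (adjusted p = 0.1138, 0.2123 and 0.08814).

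Vestibular HCs were further divided by clustering them again without the 7 genes, and the levels in these subclusters are descriptions with no test. One type I subcluster held 4672 of the 5190 Ocm UMIs of type I HCs. It had 270 cells (26, 120, 69 and 55), a median of 3779 UMIs per cell and Ano2, Olfm4, Paqr9 and Gbx2 among its leading genes. Its Ocm was at 4659, 4880, 3713 and 3376 CPM, and 71.9% of its cells held a UMI. Oncomodulin protein is known as a marker of type I HCs of the striola and the central zones of the cristae, but the position of these cells in the tissue was not recorded, and the subcluster is named here by Ano2 and Olfm4.

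The same Ano2 and Olfm4 subcluster had the highest mean level of the type I subclusters for 4 further genes. Pvalb was at 998, 777, 770 and 812 CPM, in 79.6% of its cells. Calb1 was at 21.7, 128, 139 and 197 CPM, and Pcp4 at 1346, 1515, 2847 and 2318 CPM. Its Calb2, at 65.1, 57.9, 33.5 and 75.3 CPM, was still below the type II mean. Cabp2, at 1454, 1503, 1412 and 1067 CPM, and Cabp1, at 21.7, 39.9, 19.1 and 16.7 CPM, lay in the range of the other type I subclusters.

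The largest type I subcluster, of 570 cells led by Mgat4c and Bpifa5, had Ocm at 3.50, 1.95, 5.35 and 0 CPM. A UMI was found in 1.05% of its cells and in 1.48% of the non-HC cells of the vestibule, so that Ocm was at background there. Its Pvalb was at 66.4, 79.7, 102 and 74.0 CPM, and its Pcp4 at 101, 147, 251 and 150 CPM. A subcluster of 359 cells led by S100a6 and Fndc1 lay between, with Ocm at 496, 420, 158 and 141 CPM. It had 4 UMIs of Cabp1 in all, the lowest Cabp1 level of the type I subclusters at 2.43 CPM. Ocm therefore ranged over the type I HCs from background to at least 3376 CPM in every library of the Ano2 and Olfm4 subcluster, whereas Cabp2, with libraries pooled, was between 714 and 1942 CPM in the 4 subclusters with over 200 cells.

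Type II HCs fell into 2 subclusters that differed in Calb2 and Ocm. The larger, of 216 cells led by Mogat1 and Fmn1, had Calb2 at 779, 431, 327 and 447 CPM and Ocm at 208, 362, 163 and 111 CPM. The smaller, of 61 cells (7, 25, 23 and 6) led by Zp3 and Slc8a1, had Calb2 at 21.7, 78.8, 24.1 and 24.0 CPM and Ocm at 651, 1446, 763 and 695 CPM. In each library Ocm was higher and Calb2 lower in the smaller subcluster. Pcp4 was high in both, at 3061, 4045, 5031 and 4064 CPM in the larger and 3274, 8053, 7961 and 8531 CPM in the smaller. Of the 480 Calb2 UMIs of type II HCs, 461 were in the Mogat1 and Fmn1 subcluster.

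**Figure D3:**
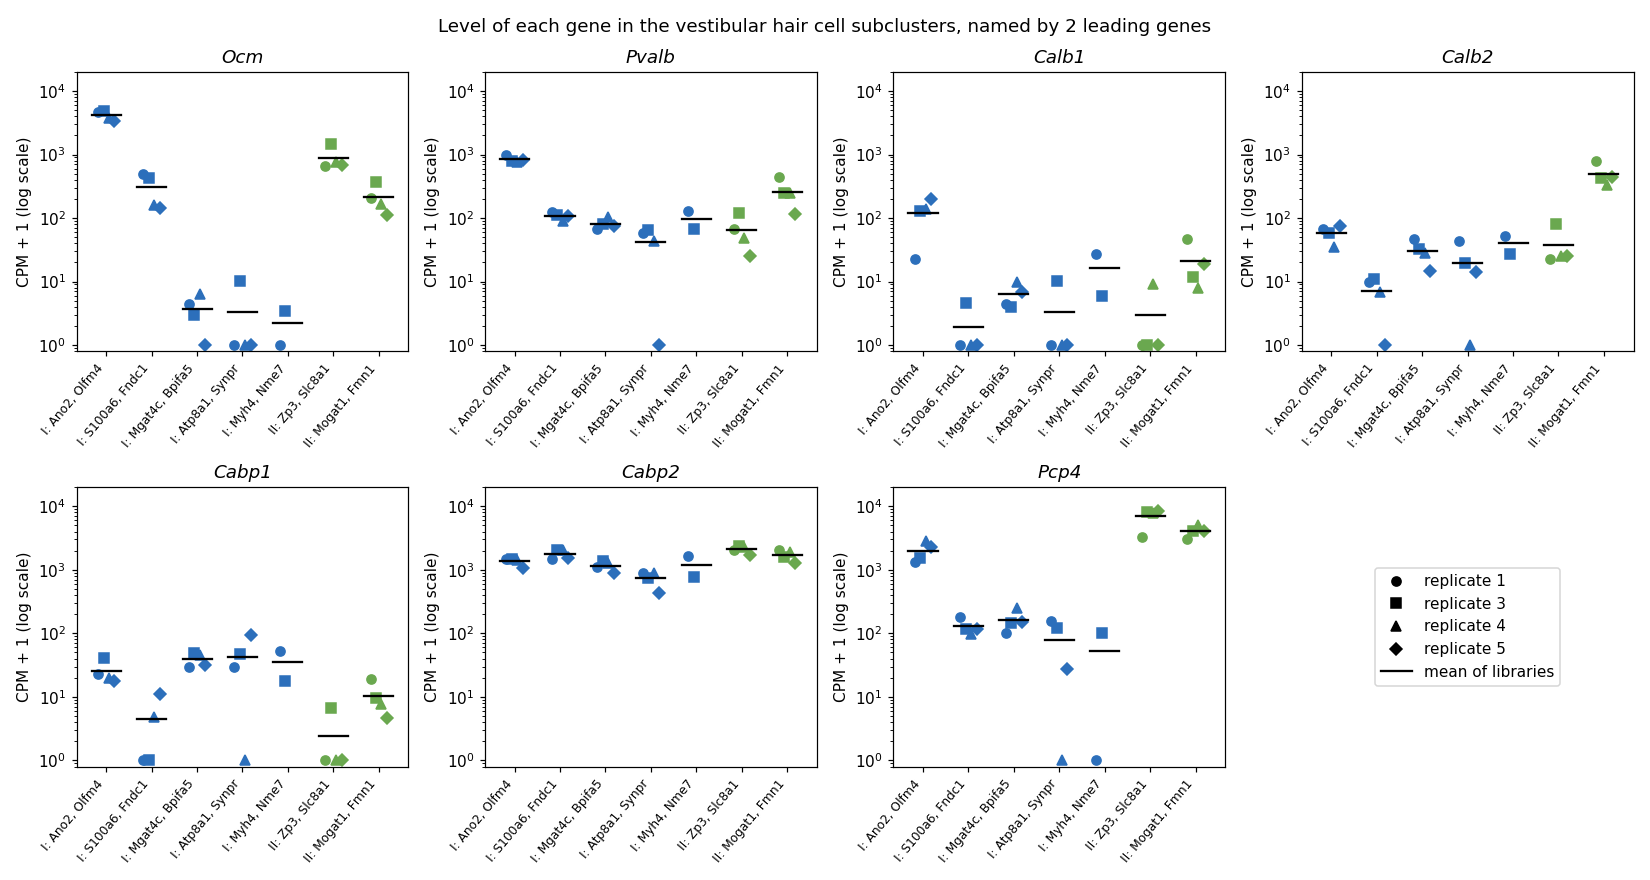
Level of each gene in CPM plus 1 on a log axis in the subclusters of vestibular HCs, with 1 point per library of at least 5 cells and the mean of the libraries as a bar. Type I subclusters (I) are in blue and type II subclusters (II) in green, each named by 2 of its leading genes. The mean levels of Ocm, Pvalb, Calb1, Calb2 and Pcp4 are highest among type I subclusters in the one led by Ano2 and Olfm4, and Calb2 is highest in the type II subcluster led by Mogat1 and Fmn1.

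The joint presence of these transcripts was also counted within cells. After thinning each type I HC to 1000 UMIs, 209 cells held Ocm and 1283 did not. Pvalb was found in 49.8% of the cells with Ocm and 8.73% of those without. The shares were 57.1 and 5.97% in replicate 1, 41.8 and 9.04% in replicate 3, 50.9 and 9.97% in replicate 4, and 62.5 and 7.55% in replicate 5, so that all 4 libraries went the same way. Pcp4 was found in 55.0% of the cells with Ocm and 8.18% of those without, and Calb1 was found in 15.8% and 0.857%, with 0 cells in either group in replicate 1. For Cabp2 the shares were 71.8% and 66.4%, and for Cabp1 they were 1.91% and 2.88%. For Calb2 they were 8.13% and 1.87%. In type II HCs, with libraries pooled, 45 cells held Ocm and 232 did not. The pooled type II shares went the other way for Pvalb, at 13.3% and 17.7%, and for Calb2, at 11.1% and 29.7%. Replicate 5, where 7 type II HCs held Ocm, did not share this (Pvalb 14.3% and 8.33%, Calb2 28.6% and 22.9%). Pooled type II Pcp4 was at 97.8% and 87.5%, and Calb1 at 6.67% and 0.431%. Cells of a library are not replicates, and these shares are descriptions.

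**Figure D4:**
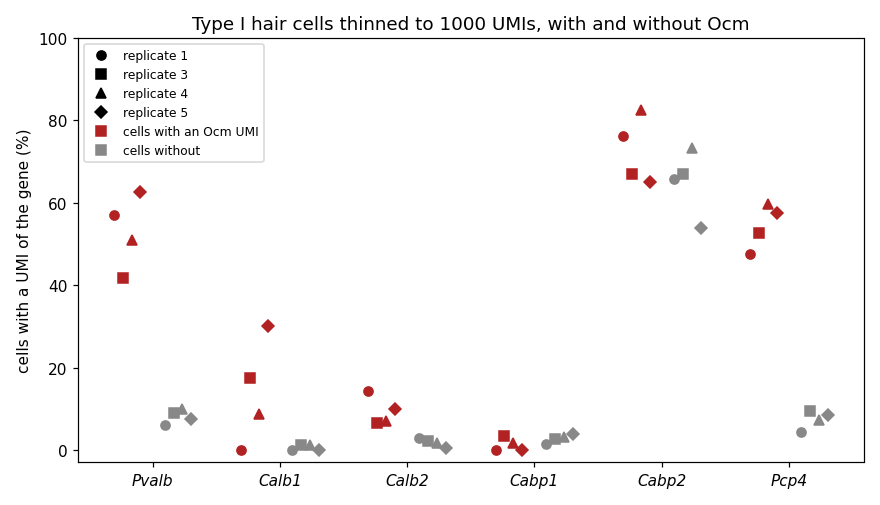
Share of type I HCs with a UMI of each gene in percent, after thinning every cell to 1000 UMIs, in cells with an Ocm UMI (red, 209 cells) and without (grey, 1283 cells), with 1 point per library. Pvalb and Pcp4 lie higher in the cells with Ocm in all 4 libraries, and the points for Cabp1 and Cabp2 differ less.

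Because Ocm, Pvalb and Pcp4 were high together in the Ano2 and Olfm4 subcluster, the 250 bases before their transcription start in RefSeq are shown (GRCm38.p6, gene strand, 5′ to 3′, with motif matches in capitals). They lie at chr15:78206401-78206650 on the minus strand for Pvalb, chr16:96467356-96467605 on the plus strand for Pcp4, and chr5:144050610-144050859 on the minus strand for Ocm. None overlaps an annotated exon. The Ocm start is 23939 bases upstream of the start of the gene as annotated in GENCODE, so that its window may not be the one used in these cells.
Pvalb: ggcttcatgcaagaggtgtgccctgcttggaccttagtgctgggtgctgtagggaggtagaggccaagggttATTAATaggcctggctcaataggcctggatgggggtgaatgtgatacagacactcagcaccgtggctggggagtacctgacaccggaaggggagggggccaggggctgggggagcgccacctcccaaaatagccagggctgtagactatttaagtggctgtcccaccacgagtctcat
Pcp4: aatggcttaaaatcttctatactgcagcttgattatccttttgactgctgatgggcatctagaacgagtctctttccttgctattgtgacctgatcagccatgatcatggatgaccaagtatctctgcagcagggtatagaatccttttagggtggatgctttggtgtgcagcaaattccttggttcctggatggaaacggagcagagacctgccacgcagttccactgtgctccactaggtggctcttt
Ocm: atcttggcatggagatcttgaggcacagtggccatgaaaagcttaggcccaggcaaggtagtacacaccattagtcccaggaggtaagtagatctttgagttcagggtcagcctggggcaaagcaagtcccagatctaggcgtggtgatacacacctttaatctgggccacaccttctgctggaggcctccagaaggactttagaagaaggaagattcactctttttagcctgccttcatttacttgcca
Motifs were searched on both strands in these and in all 32851 windows of the same length. The TATA box (TATAAA) was found in 12.4% of all windows, the CCAAT box in 33.8%, the GC box (GGGCGG) in 32.7%, the E-box (CANNTG) in 66.2% and a POU-type core (ATTAAT) in 4.39%. The POU-type core in the Pvalb window was the only match in the 3 sequences. A match is not a binding site, and the lack of one says only that these letters are not in this window.

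Related calcium-binding genes were followed through a list of 52, including the CIB proteins, neuronal calcium sensors and the reticulocalbins. In the organ comparison 26 of them were tested, of which 8 were higher in cochlear and 5 in vestibular HCs. The share called was 50%, beside 30.6% of all genes tested. The median log2 fold change of the listed genes was 0.12 beside -0.05 for all genes. Cib2 and Cib3, which encode subunits of the mechanotransduction complex, went in opposite directions between the organs. Cib2 was at 2653 ± 328 CPM in cochlear and 290 ± 38.8 CPM in vestibular HCs (log2 3.22 ± 0.24, adjusted p = 8.927e-10). Cib3 was at 13.3 ± 26.6 CPM in cochlear and 1523 ± 135 CPM in vestibular HCs (log2 -5.73 ± 0.47, adjusted p = 3.014e-09). Efhd1, which encodes a mitochondrial calcium sensor, and Tesc, which encodes tescalcin, were higher in cochlear HCs by a log2 of 6.62 ± 0.32 and 6.08 ± 0.38 (adjusted p = 1.593e-12 and 6.357e-11). Hpcal1 and the centrin Cetn2 were higher in vestibular HCs (log2 -4.35 ± 0.44 and -1.44 ± 0.23, adjusted p = 5.462e-08 and 2.759e-05).

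Of the 14 listed genes tested between IHCs and OHCs, 4 were higher in IHCs and 2 in OHCs, with a median log2 of 0.02 beside 0.00 for all genes. The share called was 42.9%, beside 32.9% of all genes tested. Calm2, which encodes calmodulin, was at 13646 ± 1597 CPM in IHCs and 3935 ± 427 CPM in OHCs (log2 1.68 ± 0.30, adjusted p = 2.923e-05). Pdcd6 was also higher in IHCs (log2 1.99 ± 0.35, adjusted p = 2.736e-05). Sri, which encodes sorcin, a regulator of calcium release channels, was at 70.2 ± 12.3 CPM in IHCs and 1225 ± 55.6 CPM in OHCs (log2 -4.09 ± 0.31, adjusted p = 1.925e-12). Efhd2 was likewise higher in OHCs (log2 -2.00 ± 0.37, adjusted p = 6.808e-05).

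Between type I and type II HCs, 24 of the list were tested, and 5 were higher in type I HCs while 4 were higher in the other type, with a median log2 of 0.08 beside 0.01 for all genes. The share called was 37.5%, beside 17.5% of all genes tested. Efhd2 led in type I HCs at 367 ± 59.5 CPM against 25 ± 14.5 CPM (log2 4.23 ± 0.26, adjusted p = 1.005e-11), and Calm2 was higher there by 0.75 ± 0.18 (adjusted p = 0.004096). Cib2 was higher in type II HCs, at 679 ± 114 CPM against 195 ± 20.3 CPM (log2 -1.72 ± 0.16, adjusted p = 9.364e-09), as were Cabp7 and Hpcal1 (log2 -1.44 ± 0.35 and -0.77 ± 0.17, adjusted p = 0.003665 and 0.001296).

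In the cochlea, 13 of 29 listed genes tested were higher and 7 lower in HCs than in other cells (median log2 0.24 beside -0.13 for all genes). The share called was 69%, beside 41% of all genes tested. Cib2 and the calmodulin-like gene Calml4 were higher in HCs by 5.02 ± 0.27 and 4.19 ± 0.28 on the log2 scale (edgeR adjusted p = 2.524e-09 and 1.929e-08). Ncs1, a neuronal calcium sensor, had 0 UMIs in cochlear HCs and 726 UMIs in other cells, and the exact 95% counting interval of the ratio of HCs to other cells reached up to 0.197. Vsnl1 held 2 UMIs in cochlear HCs, a ratio of 0.0547 to other cells (exact 95% counting interval 0.00662 to 0.198), and Rcn3 was lower by a log2 of -2.98 ± 0.58 (adjusted p = 0.0007172). In the vestibule 17 of 34 were higher and 13 lower (median 0.46 beside -0.05), a share of 88.2% called beside 62.5% of all genes tested. Cib3 was higher in HCs by 5.72 ± 0.33, Cabp7 by 4.98 ± 0.45 and Necab3 by 4.15 ± 0.51 (edgeR adjusted p = 6.695e-08, 1.59e-06 and 2.016e-05). Gap43 held 1 UMI in vestibular HCs, a ratio of 0.0300 to other cells (exact 95% counting interval 0.000754 to 0.171), and Rcn3 and Efhd1 were lower by -4.81 ± 0.42 and -3.04 ± 0.33 (adjusted p = 1.349e-06 and 7.139e-06). Gap43 was also among the neuron markers by which cells were named, so that its low level in HCs is not independent of the naming.

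The genes whose levels followed each member most closely were taken from 6951 genes over 63 pairs of library and population, as a description in which pairs of one library share its depth. Ocm was nearest to Dytn, Tmc1 and Grxcr2 (Pearson r = 0.924, 0.907 and 0.907). Tmc1 encodes the pore-forming subunit of the mechanotransduction channel. Kncn and Gipc3 were among the nearest to Cabp2 (r = 0.961 and 0.954), and Pcp4 was nearest to Lhfpl5, Syne4 and Gm30191 (r = 0.870, 0.864 and 0.864). Tmc1 and Kncn were also among the HC markers by which cells were named, so that their correlations are not independent of the naming. The nearest genes were Unc80, Dnm1 and Snap25 for Pvalb (r = 0.912, 0.890 and 0.882) and Snap25, Unc80 and Snap91 for Calb2 (r = 0.853, 0.780 and 0.771), and those among the nearest were Dnm1 and Unc80 for Cabp1 (r = 0.825 and 0.766) and Dnm3 and Sh3gl3 for Calb1 (r = 0.856 and 0.822).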

How the data were processed

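Deposited UMI counts per gene and barcode (raw counts, not normalized) were produced by the authors with Cell Ranger 5.0.1 (replicates 1 and 2) or 6.1.2 against mm10, per the file headers and the submitters' notes. Barcodes were kept from 200 genes and 1000 UMIs upward when mitochondrial UMIs made up under 25%. Per organ, cells were clustered in Seurat 5.3.0 (2000 variable genes without the 7 genes and the 52 related ones, 30 principal components, resolution 1, and 0.5 for HCs) and named from marker lists. Clusters that carried HC markers and at least 3 enriched markers of another class were set aside by a rule set after the clusters were seen. No doublet caller and no correction for free RNA was run. UMIs were summed per library and population, with populations of at least 5 cells, and expressed as CPM by library total of that population. Groups were tested by edgeR 4.0.16 (R 4.3.3), with TMM scaling, filterByExpr, the quasi-likelihood F test and Benjamini-Hochberg adjustment over all genes tested at 0.05. DESeq2 1.42.0, other filters, clustering settings, the replicate block and leaving out each library were alternatives. The scripts were tested on simulated counts. Intervals and floors (3 counts) cover counting error only.

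Named genes were the 7 members, the 3 listed genes with the largest called change in each direction of a comparison, and the 3 genes with the highest Pearson correlation of log2(CPM + 10) with each member. Some genes that this rule names are not reported here. The members and lists were chosen with earlier results of these data known. Within an organ, populations of one library came from the same pool of mice, so that the replicate number pairs them. The correlations of their deviations from the group means were 0.190 to 0.281 for type I and type II HCs, 0.0154, 0.192 and 0.112 for IHCs and OHCs of replicates 3, 4 and 5, 0.107 to 0.171 for cochlear HCs and other cells, and 0.148 to 0.268 in the vestibule. Gene positions are from GENCODE M21 on GRCm38, and promoters are from RefSeq, whose table held 5 of the 7 genes.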

Additional observations from a re-analysis of the deposited data

Results flagged for a closer look

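In 5 of the 56 groups of 4 libraries examined (chance flags about 1 in 20), 1 library stood apart from the other 3 by Dixon's criterion. Ocm in all cochlear HCs was at 29317 CPM in replicate 1, where 24 of 25 HCs were OHCs. In the other cells of the cochlea, replicate 1 was also apart for Ocm, at 68.6 CPM, and for Pcp4, at 109 CPM. Cabp1 in OHCs was at 23.8 CPM in replicate 3, from 2 UMIs, and Cabp2 in cochlear neuron-like cells was at 3.22 CPM in replicate 3, with the other 3 libraries at 0 in both cases.

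The difference between HCs and other cells was itself different between the organs for 4 of the 7 genes (edgeR, interaction term, adjusted over 13027 genes). On the log2 scale, vestibule minus cochlea, it was 4.47 for Pvalb, 4.10 for Cabp1, -3.73 for Cabp2 and -4.77 for Pcp4. The other cells of the cochlea held 299 neuron-like cells with Pvalb and Cabp1, and those of the vestibule held epithelial-like cells with Pcp4. Their part in these differences was not tested.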

How the results depend on the processing

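Over all alternatives, 435 of 473 fold changes of the 7 genes kept their direction and their side of the threshold, 14 were no longer called, 12 became called and 12 turned sign. Genes called between type I and type II HCs numbered 1393, but 2778 when the set-aside cells were kept, and 841 to 1495 when 1 replicate was left out, the lowest without replicate 3. Genes called between IHCs and OHCs numbered 505, but 805 with no filter on low counts and 225 with the stricter cell filter. The counts with 1 library left out were 1961 to 2769 between organs, 407 to 439 between IHCs and OHCs, 2930 to 4811 for cochlear and 6319 to 8535 for vestibular HCs against other cells. The log2 difference of Cabp2 between organs, near 0, turned to 0.0062 with set-aside cells kept, 0.0167 with the stricter cell filter, 0.0375 without vestibular replicate 4 and 0.45 with IHCs alone, and ran from -0.2379 to 0.2072 when 1 library was left out, the highest without cochlear replicate 1. With IHCs alone as cochlear HCs, Ocm turned to -0.45 and Calb1 to a fitted -7.80, and with OHCs alone Pvalb turned to -1.71 and Calb2 to -1.32. With set-aside cells kept, Cabp2 between type I and II turned to 0.39 and Pcp4 between IHCs and OHCs to -0.70, and the latter was -0.12 with the stricter cell filter. The causes were not tested. The replicate block gave 1967 calls between type I and type II HCs, 513 between IHCs and OHCs, and 4341 and 8718 for cochlear and vestibular HCs against other cells, and for the 7 genes it changed no call other than the 3 given in the text. Between organs the replicates share only a number (correlations 0.0391 to 0.120), and the block gave 2242 calls there beside 2341. The small number of cochlear HCs, at most 49 cells of a type in a library, limits the precision of the low counts of Calb1 and Cabp1.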

Other observations

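The cells set aside because they carried markers of HCs and of another class, in none of the comparisons, also held most of the 7 genes. In the cochlea (71 cells, median 15412 UMIs per cell) Calb2 was at 1767 ± 339 CPM, Pcp4 at 10013 ± 2710 CPM and Ocm at 543 ± 426 CPM (n = 4), and Calb1 had 0 UMIs, as in IHCs. In the vestibule (501 cells, median 6530 UMIs per cell) Cabp2 was at 784 ± 250 CPM, Pcp4 at 1264 ± 477 CPM and Ocm at 228 ± 43.6 CPM.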
